A study of Mus musculus with 6 samples.

Results

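Sirtuins and the enzymes that make or consume NAD were followed in adherent cells grown from mouse bone marrow. The set comprised the 7 sirtuin genes Sirt1 to Sirt7, Nampt, which makes the NAD precursor, and Cd38 and Bst1, whose products break NAD down. They were picked by name, not by their values. All 10 were found by symbol among the 39017 Ensembl genes of the deposited count table, and all 10 were among the 15567 genes that passed the low-count filter. The old group had 3 libraries from mice over 78 weeks of age and the young group 3 libraries from mice 3 weeks of age. Every mouse was wild-type BALB/c, and no treatment is labelled. Marrow cells came from crushed limb bones, and those that adhered were expanded in culture and labelled as F4/80+ CD169+ macrophages, with RNA of 10000 cells in each library. The labels do not say whether libraries of an age came from separate animals, so p-values measure only the spread between these libraries, which may be technical. The study compared old with young marrow cells in the setting of B-cell leukemia.

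NAD carries electrons in metabolism and is also used up as a substrate. Sirtuins remove acyl groups from lysines and spend NAD on each, releasing nicotinamide, which NAMPT turns back into the precursor of NAD. CD38 and its relative BST1 (CD157) cleave NAD at the cell surface, and CD38-bearing macrophages are known to become more common in some tissues of old mice, where they lower NAD.

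Libraries held 34391206 to 43367734 counts. Young replicate 3 stood apart from the other 5 libraries on the second principal component, and the collagen genes Col1a1 and Col1a2 took a summed 5.44% of its counts. Old libraries had 1.80% to 2.25%, and young replicates 1 and 2 had 3.00% and 2.66%. Results below are therefore given with and without it where it matters. All 12 macrophage markers examined were detected, including Adgre1 (F4/80) and Siglec1 (CD169), and collagen transcripts of connective tissue were abundant as well. In such bulk libraries fewer cells of a type and less RNA per cell cannot be told apart. Of the 12 macrophage markers, 10 fell and 0 rose in old libraries, and their summed level was 4695 to 5084 CPM in old and 8440 to 10114 CPM in young libraries. Most of that sum came from Lyz2, with a mean of 3068 CPM in old and 6012 CPM in young libraries. Lyz2 was highest in young replicate 3, at 7164 CPM. CPM here is the count of a gene scaled by TMM-normalised library size.

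None of the 10 genes differed between the ages at an adjusted p of 0.05 in edgeR's quasi-likelihood test. Across all genes tested, 10.5% did. At an unadjusted p of 0.05 there were 3 of the 10, against 23.8% of all genes, and with DESeq2 there was 1, lower in old libraries, against 15.9% of all genes in either direction, 8.55% higher and 7.3% lower. Of the 10 log2 fold changes, old minus young, 6 were negative and 4 positive, from -0.54 for Cd38 to 0.37 for Sirt1. Their median was -0.24, beside -0.01 over all genes tested. Old and young libraries were fully separated in CPM for 3 of the 10 genes, 1 higher and 2 lower, against 30.2% of all genes, 15.9% higher and 14.3% lower. The shares among the 10 genes in these counts were near the background or below it.

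**Figure D1:**
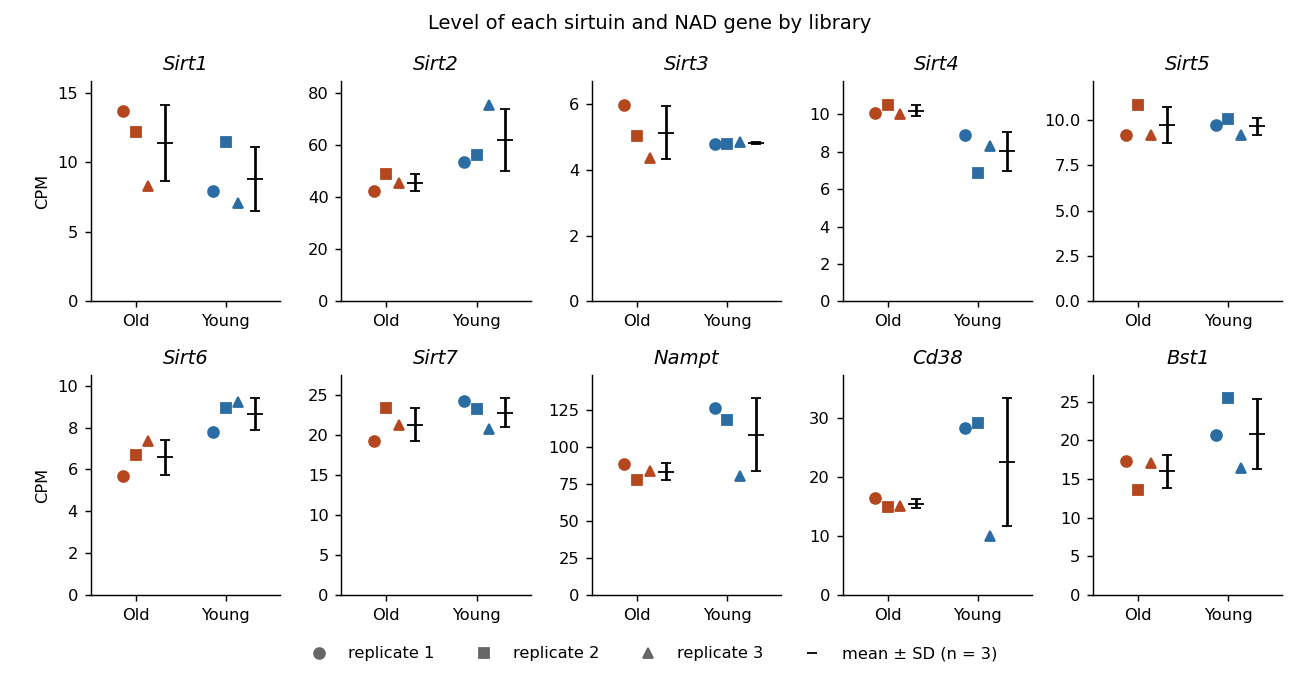
CPM (vertical axis, from 0) of each sirtuin and NAD gene in the 3 old and 3 young libraries, with 1 symbol per replicate number and the mean ± SD beside each age. The ranges are separate for Sirt2, Sirt4 and Sirt6. Young replicate 3 lies below the other young libraries for Sirt1, Sirt5, Sirt7, Nampt, Cd38 and Bst1.

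Sirt2 (mm10 coordinates here and below: ENSMUSG00000015149, chromosome 7, 28766735 to 28788661, plus strand) encodes the mainly cytosolic sirtuin that deacetylates tubulin, and per exon length it was the most abundant sirtuin transcript. It had 42.2, 48.7 and 45.5 CPM in old replicates 1, 2 and 3, against 53.5, 56.2 and 75.4 CPM in young replicates 1, 2 and 3. Every old library lay below every young one, and young replicate 3 was the highest. The log2 fold change was -0.44 with SE 0.14 (95% interval -0.78 to -0.10, edgeR adjusted p = 0.110). DESeq2 placed Sirt2 just past the threshold (adjusted p = 0.0485), the only one of the 10 genes that it called. Without young replicate 3 the log2 fold change was -0.27, and edgeR's adjusted p was 0.0866.

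Sirt6 and Sirt7 encode the nuclear sirtuins that act on chromatin and on the nucleolus. Sirt6 (ENSMUSG00000034748, chromosome 10, 81621785 to 81627797, minus strand), which is tied to DNA repair and telomeric chromatin, had 5.70, 6.70 and 7.36 CPM in old libraries against 7.79, 8.91 and 9.21 CPM in young libraries. The ages did not overlap, but the gap between the nearest libraries was small. Its log2 fold change was -0.39 with SE 0.15 (95% interval -0.75 to -0.03, edgeR adjusted p = 0.179). Sirt7 (ENSMUSG00000025138, chromosome 11, 120618372 to 120625240, minus strand), the nucleolar member, had 19.3, 23.4 and 21.3 CPM in old libraries against 24.3, 23.3 and 20.8 CPM in young libraries. Those ranges overlapped, and the 95% interval of its log2 fold change, -0.38 to 0.18, leaves room for a fall to 0.770-fold or a rise to 1.13-fold.

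Sirt1 (ENSMUSG00000020063, chromosome 10, 63319005 to 63381704, minus strand), the founding nuclear deacetylase of p53, FOXO and NF-kB proteins, had 13.7, 12.2 and 8.33 CPM in old libraries against 7.93, 11.5 and 7.07 CPM in young libraries. Old replicate 3 lay within the young range. The log2 fold change of 0.37 had an SE of 0.25 (95% interval -0.21 to 0.96, edgeR adjusted p = 0.442), an interval that runs from 0.862-fold to 1.94-fold. Leaving out 1 library moved it between 0.22 and 0.60.

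Sirt3, Sirt4 and Sirt5 encode the mitochondrial sirtuins. Sirt4 (ENSMUSG00000029524, chromosome 5, 115478010 to 115484725, minus strand), a lipoamidase and ADP-ribosyltransferase, was the one sirtuin with every old library above every young one: 10.1, 10.5 and 9.997 CPM in old replicates 1, 2 and 3 against 8.88, 6.87 and 8.29 CPM in young replicates 1, 2 and 3. Its log2 fold change was 0.35 with SE 0.14 (95% interval 0.02 to 0.68, edgeR adjusted p = 0.190). Sirt3 (ENSMUSG00000025486, chromosome 7, 140863666 to 140882309, minus strand), the main mitochondrial deacetylase, had 5.98, 5.04 and 4.36 CPM in old libraries against 4.79, 4.78 and 4.84 CPM in young libraries. The young libraries were nearly equal and lay inside the old range. Its log2 fold change was 0.09, turned to -0.03 without old replicate 1, and 12.7% of its exon length is shared with Ric8a and Psmd13. Sirt5 (ENSMUSG00000054021, chromosome 13, 43365496 to 43395203, plus strand), which removes succinyl and malonyl groups, had 9.17, 10.9 and 9.16 CPM in old libraries against 9.73, 10.1 and 9.15 CPM in young libraries. Its log2 fold change of 0.01 (95% interval -0.30 to 0.32) was the smallest of the 10 and changed sign without old replicate 2 (-0.07) or young replicate 3 (-0.02).

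Nampt (ENSMUSG00000020572, chromosome 12, 32819545 to 32853349, plus strand), the rate-limiting enzyme of the salvage of nicotinamide, was per exon length the most abundant of the 10 genes. It had 88.9, 78.1 and 83.6 CPM in old replicates 1, 2 and 3 against 126, 119 and 80.5 CPM in young replicates 1, 2 and 3. Young replicate 3 lay among the old libraries, and the other young libraries lay above them all. Over all 6 libraries the log2 fold change was -0.38 with SE 0.17 (95% interval -0.77 to 0.01, edgeR adjusted p = 0.227). Without young replicate 3 it was -0.55 with SE 0.08 and the call was made (edgeR adjusted p = 0.00516).

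Cd38 (ENSMUSG00000029084, chromosome 5, 43868553 to 43912375, plus strand), the main NAD-consuming ectoenzyme of leukocytes, had 16.4, 14.96 and 15.1 CPM in old replicates 1, 2 and 3 against 28.3, 29.2 and 10.1 CPM in young replicates 1, 2 and 3. The old libraries were close together, young replicates 1 and 2 stood well above them, and young replicate 3 was the lowest of all 6. The log2 fold change was -0.54 with SE 0.36 (95% interval -1.39 to 0.31, edgeR adjusted p = 0.442), an interval that reaches up to a 1.24-fold rise. Without young replicate 3 it was -0.89 with SE 0.10 (edgeR adjusted p = 0.00213), so 1 library decides whether Cd38 is called lower in old cultures. The other 5 fits that leave out a library gave a log2 fold change between -0.58 and -0.31 and no call.

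Bst1 (ENSMUSG00000029082, chromosome 5, 43818885 to 43843986, plus strand) encodes the GPI-anchored CD157, first described on marrow stromal cells and also carried by myeloid and early B cells. It lies next to Cd38 on chromosome 5, with 24.6 kb between the gene models, and 2.95% of its exon length overlaps Fbxl5. Bst1 had 17.3, 13.6 and 17.1 CPM in old libraries against 20.7, 25.4 and 16.4 CPM in young libraries. Young replicate 3 again lay within the old range. The log2 fold change was -0.38 with SE 0.19 (edgeR adjusted p = 0.270), and without young replicate 3 it was -0.53 (adjusted p = 0.0631).

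**Figure D2:**
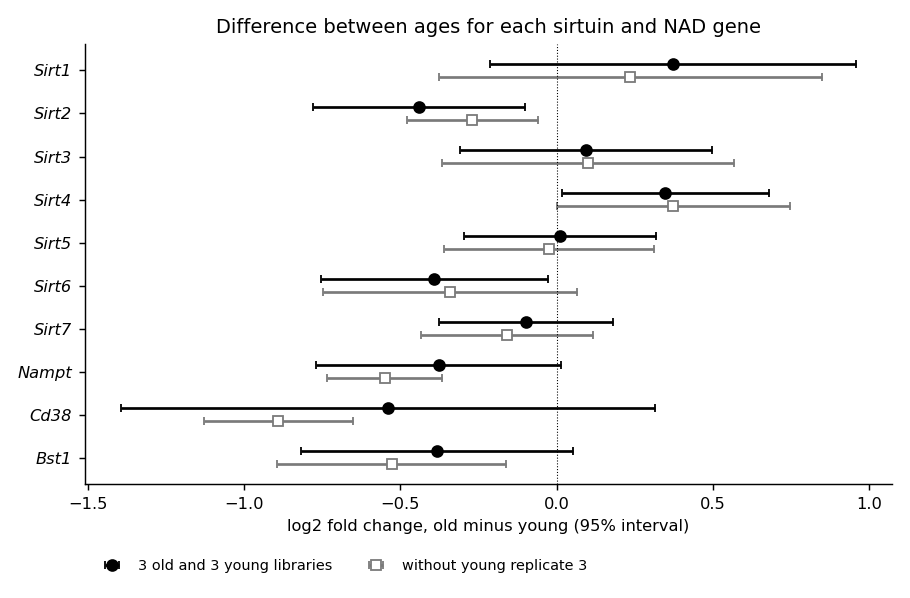
Log2 fold change, old minus young, with its 95% interval for each gene, from all 6 libraries (filled circles) and without young replicate 3 (open squares). The interval of Cd38 spans -1.39 to 0.31 with all libraries and -1.13 to -0.65 without that library.

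Without young replicate 3, then, 2 of the 10 genes passed, Nampt and Cd38, both lower in old libraries, while 16.5% of all genes were called, 9.14% higher and 7.32% lower. Old and young libraries were then fully separated for 6 of the 10, against 49.3% of all genes, and 5 of these were lower, against 24.4%. In young replicate 3 the CPM of Cd38 was 0.350 times the mean of the other young libraries, a ratio that 2.28% of the 15522 genes with a value equalled or went below. The ratio was 0.658 for Nampt, 0.711 for Bst1 and 0.729 for Sirt1, and 1.37 for Sirt2. Markers of several cell types moved in that same library. All 10 neutrophil markers were lower there (median ratio 0.638), as were all 7 tested markers of T and NK cells (0.383), 8 of the 12 macrophage markers (0.876) and 5 of the 8 tested B cell markers. All 7 megakaryocyte markers were lower as well (0.485). All 10 stromal markers were higher (median ratio 1.29). Of osteoblast markers 1 of 8 was lower (1.62), and of endothelial markers 1 of 7 (1.41). Median ratios were 0.814 for plasma cells, 1.19 for mast cells and basophils and 0.885 for osteoclasts. Over the 15522 genes the median ratio was 1.002. The part of these marker shifts in the values of Cd38 and Nampt was not tested.

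Between the ages, too, cell type markers moved beside these genes. Over the 12 macrophage markers the log2 fold change had a median of -1.004 with all libraries, and of -1.08 without young replicate 3. Of 10 neutrophil markers, 1 fell and 0 rose, with a summed level of 916 to 1710 CPM in old and 1362 to 2351 CPM in young libraries. All 10 of their log2 fold changes were negative, with a median of -0.67. CD38 and CD157 are also carried by cells of the B lineage. Of 8 tested B cell markers 6 rose and 1 fell. The B cell list summed to 144 to 160 CPM in old and 89.5 to 116 CPM in young libraries. Pax5 and Vpreb3 did not pass the low-count filter. Both were at 0 in each young library and near it in old ones, at 0.104 CPM or less for Pax5 and 0.305 CPM or less for Vpreb3. Of 7 tested plasma cell markers 4 rose and 0 fell, with summed levels of 984 to 1138 CPM in old and 701 to 737 CPM in young libraries, most of it from Xbp1 and Sdc1, which other cells express as well. Of 10 stromal markers 2 rose and 2 fell, with summed levels of 23525 to 29633 CPM in old and 30818 to 68480 CPM in young libraries. Of 8 osteoblast markers 4 fell and 0 rose, with a median log2 fold change of -1.05 over the 8 and summed levels of 745 to 978 CPM in old and 1621 to 3422 CPM in young libraries. Megakaryocyte markers had the highest median log2 fold change of the 11 lists, 3.11, with 231 to 332 CPM in old and 47.2 to 84.8 CPM in young libraries. Of these 7 markers 4 rose and 0 fell, but without young replicate 3 only 1 was called. Of 7 mast cell and basophil markers 4 rose and 0 fell (56.7 to 95.4 CPM in old and 23.9 to 28.0 CPM in young libraries), as did 2 of 6 tested osteoclast markers (433 to 500 CPM in old and 153 to 193 CPM in young libraries). Of 7 tested T and NK cell markers 1 fell and 0 rose, with 6 negative log2 fold changes, 1 positive and a median of -1.12. That list summed to 4.73 to 10.7 CPM in old and 16.2 to 27.6 CPM in young libraries. Of 7 endothelial markers 0 passed with edgeR, 1 passed with DESeq2 and 2 had an unadjusted p under 0.05. No defining marker of macrophages, neutrophils, plasma cells or stromal cells was at 0 in every library. The part of these shifts in the levels of the 10 genes was not tested.

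**Figure D3:**
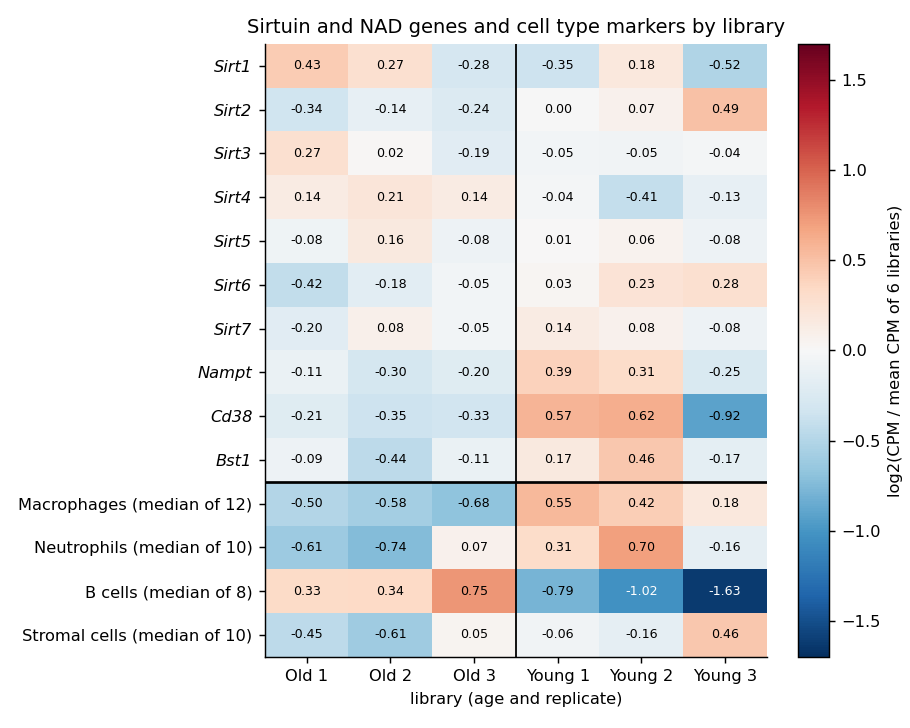
Log2 of CPM over the mean of the 6 libraries (colour and printed value) for each sirtuin and NAD gene, and below the line the median of that value over the tested markers of 4 cell types. Young replicate 3 has -0.92 for Cd38, where young replicates 1 and 2 have 0.57 and 0.62, and its median is 0.46 for stromal markers.

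Per kilobase of exon, which allows levels to be compared between genes, Nampt led in both ages, with 16.5 ± 1.08 CPM per kb in old and 21.5 ± 4.84 CPM per kb in young libraries (SD, n = 3 each). Sirt2 followed at 9.03 ± 0.643 in old and 12.3 ± 2.37 CPM per kb in young libraries, and its range met that of no neighbour in either age. Bst1, Sirt4, Sirt7 and Cd38 came next in old libraries, with means from 4.82 down to 3.98 CPM per kb and ranges in which each overlapped the next. In young libraries the order after Sirt2 was Bst1, Cd38, Sirt7 and Sirt4, and the range of Cd38, 2.59 to 7.51 CPM per kb, took in those of Sirt7 and Sirt4. Sirt6, Sirt1 and Sirt5 followed in both ages, and in old libraries their ranges overlapped from one to the next. Sirt3 was lowest, at 0.858 ± 0.136 CPM per kb in old and 0.805 ± 0.00553 in young libraries. Exon lengths were taken over all annotated transcripts of a gene, so a gene with long alternative exons reads low on this scale.

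For the pair with the smallest p, Sirt2 and Sirt6, the tested genes with the most similar profile over the 6 libraries were sought by the root mean square difference of gene-centred log2(CPM + 1). For Sirt2 they were Plec (0.047), Rasa4 (0.053) and Brpf1 (0.059), where the profile of Sirt2 itself had a root mean square spread of 0.265. For Sirt6 they were Gkap1 (0.043), Iqsec2 (0.048) and Ifi30 (0.049), against a spread of 0.208.

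The upstream sequences of Nampt and Sirt1 are shown because NAMPT supplies the NAD that SIRT1 spends, and in mouse cells SIRT1 and the circadian clock are known to act on Nampt in turn. RefSeq promoters (GRCm38.p6) were found for 9 of the 10 genes. Each sequence runs 5′ to 3′ on the strand of the gene, and capitals mark GC boxes (GGGCGG or its reverse complement CCGCCC, the motif of SP1-type factors) and E-boxes (CACGTG, the motif of the clock and MYC families, which reads the same on both strands). Neighbouring GC boxes can overlap. The first is the 250 bases before the RefSeq start of Nampt, chr12:32820085-32820334 on the plus strand. The second is chr10:63339051-63339285 on the minus strand, before the RefSeq start of Sirt1, where the 15 bases nearest that start are left out because an annotated exon covers them. The GENCODE gene models given above begin farther upstream, since they include a longer transcript of each gene, so the upstream end of the window lies 540 bases inside the model of Nampt and 42419 bases inside that of Sirt1.
Nampt: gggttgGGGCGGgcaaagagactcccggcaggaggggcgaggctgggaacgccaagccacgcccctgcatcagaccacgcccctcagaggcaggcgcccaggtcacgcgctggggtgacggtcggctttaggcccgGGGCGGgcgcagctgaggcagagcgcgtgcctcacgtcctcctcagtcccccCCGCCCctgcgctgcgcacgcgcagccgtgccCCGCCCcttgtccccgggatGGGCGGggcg
Sirt1: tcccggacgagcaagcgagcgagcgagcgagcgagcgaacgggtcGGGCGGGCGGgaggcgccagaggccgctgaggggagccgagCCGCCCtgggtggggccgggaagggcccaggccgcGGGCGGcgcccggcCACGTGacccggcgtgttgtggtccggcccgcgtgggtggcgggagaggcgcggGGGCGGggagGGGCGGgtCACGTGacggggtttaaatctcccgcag

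The Nampt window held 5 GC boxes and 0 E-boxes, and the Sirt1 window 6 GC boxes and 2 E-boxes. Among 32851 RefSeq promoter windows of 250 bases, 32.7% held a GC box and 6.02% an E-box. Windows with 5 or more GC boxes made up 1.93%, and those with 2 or more E-boxes 0.429%. Both windows were rich in CpG, with 27 in Nampt and 39 in the whole 250 bases before the RefSeq start of Sirt1, against a median of 6. The windows of the other sirtuins held 12 to 21 CpG. That of Cd38 held 1, with no GC box and no E-box, and 18.8% of all promoter windows held as few. A match of letters describes the sequence and shows no binding.

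The rest of NAD metabolism was examined through 75 other genes in lists chosen with earlier results of these data known. Of these, 73 were matched and 59 tested, and 4 rose and 3 fell in old libraries with edgeR, where 5.84% of all genes were higher and 4.7% lower. The median log2 fold change of the 59 was -0.06. Only the falls of Acss1 and Acss2 were called in every fit that left out 1 library. The other 5 calls each held without young replicate 3 and were lost without any other single library.

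**Figure D4:**
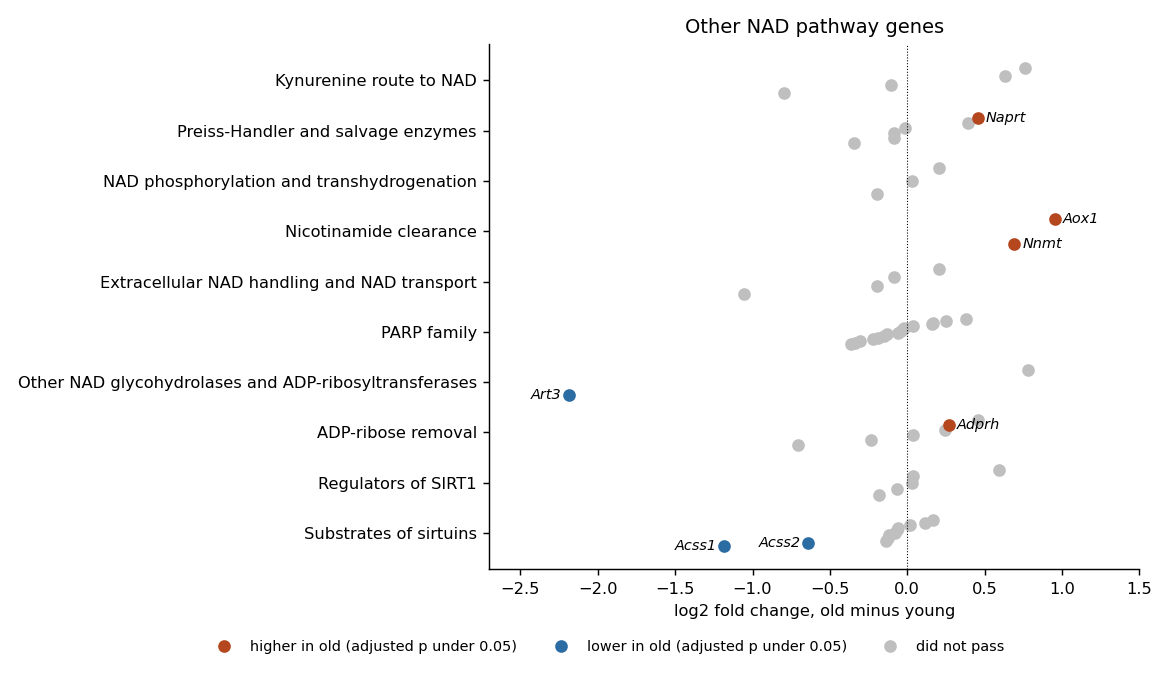
Log2 fold change, old minus young, of the 59 tested NAD pathway genes by list, with genes past an adjusted p of 0.05 in colour and named. Both genes of nicotinamide clearance lie to the right of 0, and none of the 16 PARP family genes passed, beside 10.5% of all genes tested.

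Both genes of nicotinamide clearance rose. Nnmt, which methylates nicotinamide and so takes it out of the salvage route, had 49.4, 42.7 and 61.6 CPM in old libraries against 33.4, 25.9 and 35.9 CPM in young libraries. The ages did not overlap, and the log2 fold change was 0.69 with SE 0.17 (edgeR adjusted p = 0.0482, 0.0331 to 0.142 on leaving out 1 library, and 0.0505 with no low-count filter). Aox1, the oxidase that acts on methylated nicotinamide, had 10.5, 9.87 and 12.7 CPM in old libraries against 5.11, 4.92 and 7.04 CPM in young libraries. Its log2 fold change was 0.96 with SE 0.19 (edgeR adjusted p = 0.0217, 0.00594 to 0.0810 on leaving out 1 library).

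Among enzymes that make NAD, 1 of 6 tested in the Preiss-Handler and salvage list rose and 0 fell. Naprt, which starts NAD synthesis from nicotinic acid, had 29.3, 27.2 and 26.0 CPM in old libraries against 20.5, 19.3 and 20.2 CPM in young libraries. The libraries of each age were close together, and the log2 fold change was 0.46 with SE 0.10 (edgeR adjusted p = 0.0268, 0.0245 to 0.118 on leaving out 1 library). A share of 11.8% of its exon length is shared with Eef1d. The nuclear, Golgi-bound and mitochondrial adenylyltransferase genes Nmnat1, Nmnat2 and Nmnat3 did not pass, nor did Nadsyn1 or Nmrk1.

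The route from tryptophan had low counts. Of 9 kynurenine route genes 4 were tested and 0 passed. Ido1 and Acmsd had 0 counts in every library. Of the tested genes the most abundant were Afmid, at 2.91 ± 1.02 CPM in old and 1.72 ± 0.342 CPM in young libraries (SD, n = 3 each), and Kmo, at 0.799, 1.64 and 1.19 CPM in old libraries and 3.20, 2.09 and 1.01 CPM in young libraries. A share of 46.6% of the exon length of Afmid is shared with other gene models.

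Most genes of other NAD consumers were not called, as was so for all genes tested, of which edgeR called 10.5%. Most proteins of the PARP family build ADP-ribose chains or single units on proteins. Of its 16 genes, 0 passed with edgeR or DESeq2, against 10.5% and 15.9% of all genes. In edgeR 2 had an unadjusted p under 0.05, against 23.8% of all genes. The most abundant were Tnks2, at 175 ± 6.09 CPM in old and 183 ± 6.50 CPM in young libraries, and Parp12, at 108 ± 3.41 CPM in old and 134 ± 26.5 CPM in young libraries. Without young replicate 3, 2 of the 16, Parp11 and Parp12, were called lower and 0 higher. In that fit 7.32% of all genes were called lower and 9.14% higher. Of the other transferases and glycohydrolases 2 were tested. Art3 fell at a trace level, with 0.251, 0.156 and 0.278 CPM in old libraries against 0.999, 1.61 and 0.535 CPM in young libraries (log2 fold change -2.19, SE 0.53, edgeR adjusted p = 0.0423). The call was lost with no low-count filter (adjusted p = 0.0523), and the adjusted p ran from 0.0184 to 0.160 on leaving out 1 library. Sarm1 did not pass.

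Of 6 tested genes that remove ADP-ribose, 1 rose. Adprh, which frees ADP-ribose from arginine, had 131, 131 and 129 CPM in old libraries against 105, 110.4 and 108 CPM in young libraries. The log2 fold change was 0.27 with SE 0.07 (edgeR adjusted p = 0.0440). The call was lost with no low-count filter (adjusted p = 0.0642), and the adjusted p ran from 0.0258 to 0.168 on leaving out 1 library. For NAD phosphorylation and transhydrogenation, 0 of 3 genes passed. Nadk had 204 ± 0.978 CPM in old and 199.6 ± 22.0 CPM in young libraries. Nnt had 167 ± 8.04 CPM in old and 144 ± 2.56 CPM in young libraries. A share of 47.5% of its exon length overlaps another gene model that is also named Nnt. For extracellular handling and transport of NAD, 0 of 4 passed, including the pyrophosphatase gene Enpp1 (66.0 ± 4.17 CPM in old and 69.9 ± 4.66 CPM in young libraries) and the mitochondrial NAD carrier gene Slc25a51 (50.1 ± 2.88 CPM in old and 43.4 ± 10.7 CPM in young libraries).

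Proteins on which sirtuins act were represented by 11 tested genes, of which 2 fell and 0 rose. Both encode acetyl-CoA synthetases, enzymes that mammalian sirtuins switch on by deacetylation, SIRT3 for the mitochondrial ACSS1 and SIRT1 for the cytosolic ACSS2. Acss1 had 16.0, 15.8 and 15.3 CPM in old libraries against 37.8, 39.9 and 29.2 CPM in young libraries. All old libraries lay well below the young ones, and the log2 fold change was -1.18 with SE 0.14 (edgeR adjusted p = 0.00275). Acss2 had 29.8, 36.0 and 34.0 CPM in old libraries against 50.9, 49.7 and 54.7 CPM in young libraries, a log2 fold change of -0.64 with SE 0.10 (edgeR adjusted p = 0.00935). On leaving out 1 library the adjusted p reached 0.0205 at most for Acss1 and 0.0438 for Acss2. In the same libraries 10 of the 12 macrophage markers fell (median log2 fold change over the 12 of -1.004). Medians were also negative for T and NK cell (-1.12), osteoblast (-1.05), neutrophil (-0.67), stromal (-0.62) and endothelial (-0.53) markers. They were positive for markers of B cells, plasma cells, megakaryocytes, mast cells and basophils, and osteoclasts. The part of these marker shifts in the fall of Acss1 and Acss2 was not tested. Of 5 regulators of SIRT1, 0 passed. Hic1, a repressor of Sirt1 transcription, named after its values were seen, lay just outside the threshold, with 31.4, 41.3 and 45.2 CPM in old libraries against 24.6, 24.3 and 29.1 CPM in young libraries. The ages did not overlap (log2 fold change 0.59, SE 0.15, edgeR adjusted p = 0.0538). It was called with DESeq2, with upper-quartile factors, with the stricter filter, without young replicate 3 (adjusted p = 0.0318) and without old replicate 1. The most abundant were Usp22, a deubiquitinase, at 215 ± 7.20 CPM in old and 209 ± 10.9 CPM in young libraries, and Psme3, a proteasome activator, at 212 ± 5.73 CPM in old and 222 ± 10.2 CPM in young libraries.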

How the data were processed

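The authors deposited whole-number counts of reads per gene for 6 libraries, prepared with a low-input kit and sequenced as read pairs of 100 bases per the labels' protocols. Reads were handled with cutadapt 1.18, STAR 2.6.1a, HISAT2 2.1.0 and StringTie 1.3.4d on mm10, in roles not stated, per the submitters' processing notes. Which tool counted, on what annotation, with what strand and multi-mapping settings, is not given in the sources used here, so overlapping genes may share reads. Symbols, positions and exon lengths came from GENCODE M21 (mm10), which with a table of gene names gave 37693 identifiers a symbol. The kit adds no molecular identifiers, so counts are not independent molecules.

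The count model was edgeR 4.0.16 (R 4.3.3) over all genes (filterByExpr, TMM, robust quasi-likelihood test, old minus young, Benjamini-Hochberg adjustment over 15567 genes, threshold 0.05). The SE is the absolute log2 fold change over the square root of F, and the 95% interval, not adjusted for multiple tests, uses its total degrees of freedom. CPM and means ± SD (n = 3) use TMM-scaled library sizes. On simulated data the share of changed genes recovered fell short of the share first required, and that requirement was replaced, after the result was seen, by checks on fitted folds and false calls. True changes can therefore be missed with these libraries. Alternatives were DESeq2 1.42.0 (test, size factors), upper-quartile factors, no filter, a stricter filter (50 counts or more in 3 libraries), blocking on replicate number, and leaving out each library.

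The genes, lists and tests were chosen with earlier results of these data known. Named were the 10 genes, each called gene of the NAD lists and, where none was called, the 2 most abundant, plus 3 genes of similar profile for the 2 with the smallest p. Pathway genes named as not called, Hic1 and Parp11 were named after their values were seen. Pnp and Art2a were not analysed here.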

Additional observations from a re-analysis of the deposited data

How the results depend on the processing

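DESeq2 size factors, upper-quartile factors, either filter and the replicate block left 0 of the 10 sirtuin and NAD genes called, as with edgeR's own settings. The DESeq2 test called 1 of them (Sirt2) and 2468 genes in all, against 1640 with edgeR. Leaving out 1 library gave 0 to 2 of the 10 genes, 727 to 2627 genes in all and 2 to 12 of the NAD pathway genes, with each upper bound reached without young replicate 3. Over all genes the count was 971 without young replicate 1 and 727, 727 and 916 without old replicates 1, 2 and 3. With no low-count filter 4 of the NAD pathway genes were called, against 7. On leaving out 1 library the log2 fold change ran from -0.0325 to 0.195 for Sirt3 and from -0.0741 to 0.0525 for Sirt5, changing sign. Of 120 refits of the 10 genes, 114 kept direction and side of the threshold. The causes were not tested. In the fit with the replicate block, 0 of the 10 genes, 5 of the pathway genes and 1286 genes in all were called; Naprt, Adprh and Art3 lost their calls (adjusted p 0.0604, 0.0903 and 0.111) and Hic1 gained one. The pairing rests on numbers alone, and deviations of same-numbered old and young libraries had correlations of 0.0883, 0.034 and 0.09, the highest for each library. Depth was 34391206 counts or more per library, and precision was lowest for genes near 1 CPM or under it, such as Art3.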
